A study of Mus musculus with 5 samples.

Results

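The genes described here make, restrain and bind retinoic acid: Aldh1a1, Aldh1a2, Aldh1a3, Rbp4, Stra6, Crabp1, Crabp2, Rdh10 and Dhrs3. They were chosen by name, as every probe set whose single gene symbol in the platform annotation was one of these 9. This gave 12 of the 34958 probe sets with 1 symbol, and 9 of the 18194 genes those probe sets represent. Aldh1a3 had 3 probe sets, Rdh10 had 2 and each of the other members had 1.

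RNA came from cells sorted for GFP by flow cytometry out of mouse lungs of the SPC-GFP line, taken at postnatal day 2. SPC-GFP animals had been mated with outbred ICR mice, and lungs that glowed under the microscope were dissociated with trypsin and EDTA. The 5 biological replicates formed 1 group with 1 array each, so no treatment, age or genotype was compared, and the labels do not say whether a replicate was 1 pup or a pool. Sample titles call the cells alveolar type 2 cells, named after the surfactant-secreting cells of the air sacs, while the design text calls them ciliated cells. SPC is the usual short name of surfactant protein C, the marker of alveolar type 2 cells.

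Vitamin A travels in blood as retinol bound to retinol binding protein (Rbp4), and the membrane receptor Stra6 can take it up. Rdh10 oxidises retinol to retinal, Dhrs3 turns retinal back into retinol, and the Aldh1a enzymes oxidise retinal to retinoic acid. Inside the cell, Crabp1 and Crabp2 bind retinoic acid, Cyp26 enzymes break it down, and the nuclear receptors RAR and RXR switch genes on in response to it. In lung, retinoic acid is known for its part in the budding of the embryonic organ and in the formation of alveolar walls after birth.

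Values are log2 signals per probe set, a scale inferred from their range, and levels of different genes were not ranked because probes differ in how they hybridise. The background of an array was the 95th percentile of 77 odorant, vomeronasal, taste and trace amine receptor genes, a set known chiefly from sensory organs. It lay at 5.43 to 5.70. A gene was called above background when limma's one-sided moderated test gave a Benjamini-Hochberg adjusted p under 0.05 over all genes. Array medians ran from 7.12 to 7.19. Of the fixed cell type markers, 11 of 11 for alveolar type 2 cells, 12 of 12 for alveolar type 1 cells and 12 of 12 for ciliated cells were called above background. Transcripts of fibroblasts (13 of 15), endothelium (12 of 12) and immune cells (12 of 12) were called as well, so a signal here cannot be assigned to one cell type. Markers of club and secretory cells gave 10 of 12, mesothelial markers 5 of 9, neuroendocrine markers 4 of 6 and erythroid markers 2 of 6. Among all genes tested, 74.9% were called, so these counts alone do not tell which cells were present. A list's score in an array, given beside some results, averages the mean-centred values of its called genes and subtracts the median of such values over all called genes. In such bulk samples, fewer cells of a type and less RNA per cell cannot be told apart. The p-values rest on how much these 5 samples varied, which may in part be technical, and the error of the background level itself is not part of them.

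Of the 9 members, 8 were called above background, and the exception was Stra6. Among all genes tested, 74.9% were called, and with 9 members the count is not read as particular to them. At the level of probe sets, 9 of 12 members were called, against 72.3% of all probe sets with 1 symbol. The signals of Dhrs3, Aldh1a1, Rdh10 and Rbp4 were far above background in all 5 arrays, and these 4 were also the members called against a second background made of 52 genes restricted to other organs, at 8.50 to 9.06. On average over the arrays, Aldh1a2, Aldh1a3, Crabp1 and Crabp2 lay below that second background, although Crabp1 in replicate 5 lay above it. The highest genes of that background include Mbp and Alb.

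**Figure D1:**
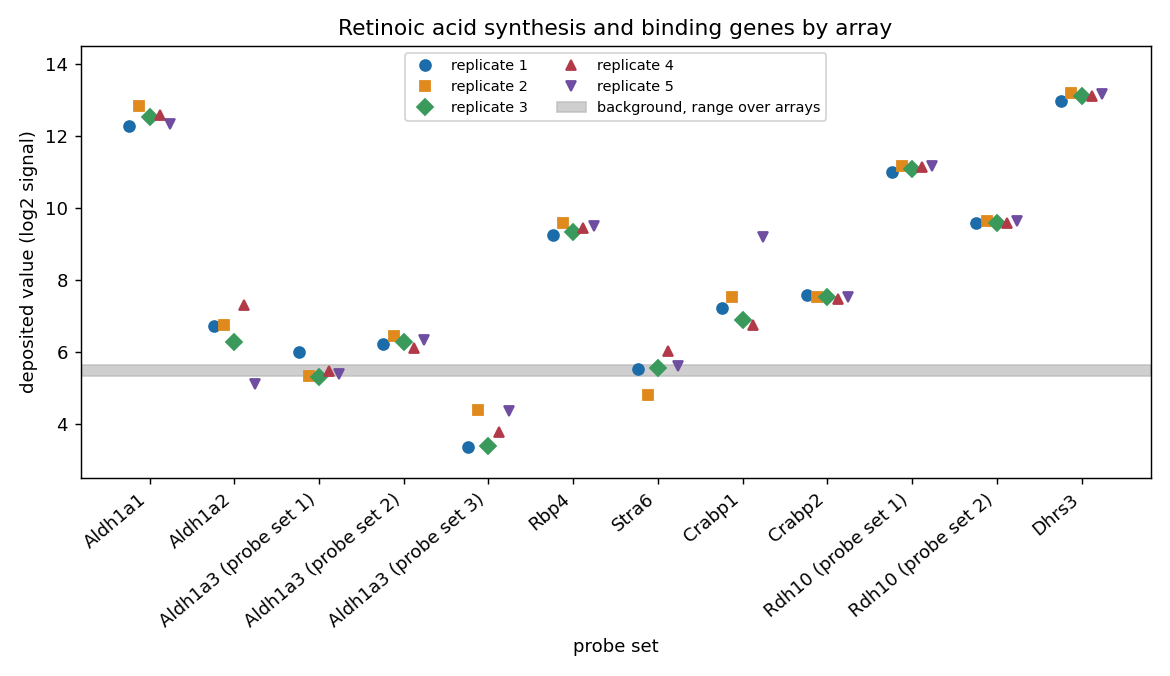
Deposited log2 signal (vertical axis) of the 12 member probe sets (horizontal axis) in replicates 1 to 5, 1 point per array, with the range of the probe set background over the arrays as a grey band. Dhrs3, Aldh1a1, Rdh10 and Rbp4 lie far above the band, and of these Aldh1a1 has the widest range (0.55 log2 units). Crabp1 in replicate 5 (9.20) and Aldh1a2 in replicate 5 (5.10) stand away from the other replicates.

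Uptake of retinol was represented by a carrier with signal and a receptor at background. Rbp4, the carrier, read 9.24, 9.57, 9.32, 9.44 and 9.50 in replicates 1 to 5. All of these lay within 0.33 log2 units, with a mean of 9.42 ± 0.13 (SD, n = 5), 3.89 above background (SE 0.098, limma adjusted p = 1.88e-15). Stra6 read 5.53, 4.80, 5.54, 6.04 and 5.60. Its mean of 5.50 ± 0.44 (SD, n = 5) lay at background, with a difference of −0.020 (SE 0.14, limma adjusted p = 0.711). Replicate 2 was lowest and replicate 4 highest, and 4 of the 5 arrays exceeded their own background. With the 90th percentile of the receptor genes as background, Stra6 lay 0.41 above it and was called (limma adjusted p = 0.0125), so its call depends on that choice.

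The other genes of storage and transport gave 9 of 12 measured genes above background (75%, against 74.9% of all genes). Lpl, the lipase that frees fatty acids and retinyl esters from lipoproteins, had 12.19 ± 0.22 (SD, n = 5), Dgat1, an acyltransferase that can esterify retinol, had 10.58 ± 0.063, and Fabp5, a lipid binding protein that can carry retinoic acid, had 13.91 ± 0.14. Lrat, the main enzyme of retinyl ester storage, read 6.43, 5.97, 5.05, 6.41 and 6.40 on its brightest probe set. Its mean was called above background (limma adjusted p = 0.00758). Replicate 3 lay below the rest and below the background of its array (5.47). The other Lrat probe set, also called, read 5.85, 5.78, 6.36, 5.43 and 5.77 with replicate 3 highest, so the 2 probe sets disagree on that array. Ttr, the blood partner of Rbp4, read 8.45, 5.92, 6.54, 5.76 and 5.57, so that replicate 1 stood above the others. Its other 3 probe sets had means of 4.88, 3.73 and 4.19 and were not called, and each was also highest in replicate 1. The scores of the ciliated markers (0.93, against −0.48 to 0.28) and of the neuroendocrine markers (0.58, against −0.53 to 0.13) were highest in that replicate. The erythroid score, which rests on 2 called genes, was 0.60 there and 0.64 in replicate 4. Also highest in replicate 1 was the mean of 10 bioB and bioC hybridisation controls (12.57 against 11.63 to 11.79). Their part in the Ttr values was not tested. On their brightest probe sets, the members Aldh1a1, Rbp4, Rdh10 and Dhrs3 were lowest in replicate 1. The other members were lowest in other arrays, and Crabp2 was highest in replicate 1. Whether the raised controls of that array bear on the member values was not tested. The eye genes Rbp3, Rpe65 and Rlbp1 were not called.

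Both enzymes that balance retinol against retinal gave stable signals. Rdh10 read 11.01, 11.16, 11.08, 11.14 and 11.16 on its brighter probe set and 9.57, 9.65, 9.59, 9.57 and 9.64 on the other. The replicates lay within 0.15 and 0.079 log2 units, and both probe sets were above background (limma adjusted p = 4.2e-19 and 1.88e-16). Dhrs3 read 12.96, 13.20, 13.10, 13.10 and 13.17, a mean of 13.11 ± 0.091 (SD, n = 5) that lay 7.58 above background (limma adjusted p = 7.49e-21). Rdh10 was thus measured by separate probe sets that gave the same call, while Dhrs3 rested on 1 probe set.

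Of the other oxidising and carotene-cleaving enzymes, 11 of 18 measured genes were above background (61.1%, against 74.9% of all genes). Dhrs9 was not analysed here. Rdh11, Rdh13 and Rdh14, microsomal or mitochondrial retinol dehydrogenases, had 9.18 ± 0.19, 10.43 ± 0.21 and 9.99 ± 0.14 (SD, n = 5). The dehydrogenase genes Dhrs4 and Dhrs7 had 11.19 ± 0.12 and 11.33 ± 0.089. Adh5, a broad alcohol dehydrogenase, had 13.22 ± 0.072 on one probe set and 3.68 ± 0.43 on another, which lay below background in all 5 arrays. Not called were Aldh8a1, Adh4, Rdh1, Rdh7, Rdh16, and the carotene oxygenases Bco1 and Bco2. Bco2 read 5.32, 5.76, 6.75, 5.54 and 5.86 (limma adjusted p = 0.0666) and was called without replicate 1 (adjusted p = 0.0255). Rdh12, with 5.86 ± 0.28, lost its call when replicate 1, 2 or 3 was left out (adjusted p = 0.0586, 0.0659 and 0.0531, limma).

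The 3 enzymes that complete retinoic acid synthesis differed in how they were measured and in how they varied. Aldh1a1 read 12.27, 12.82, 12.51, 12.58 and 12.34 in replicates 1 to 5, highest in replicate 2, with a mean of 12.50 ± 0.22 (SD, n = 5) and 6.98 above background (limma adjusted p = 1.97e-19). Aldh1a7, a close relative whose gene lies next to Aldh1a1 with 0 protein-coding genes between them, read 13.16, 13.40, 13.37, 13.20 and 13.20. Whether the probes tell these relatives apart was not tested, so both values are uncertain in that respect.

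Aldh1a2, the enzyme known from mesothelium and mesenchyme of the developing lung, read 6.73, 6.75, 6.26, 7.30 and 5.10. Replicate 4 was highest and replicate 5 lowest, a 4.59-fold range, and 4 of 5 arrays exceeded background. The mean of 6.43 ± 0.83 (SD, n = 5) lay 0.91 above background (SE 0.23, limma adjusted p = 0.00113), and at the 99th percentile of the receptor genes it was not called (difference −0.049, adjusted p = 0.845).

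Aldh1a3, known from epithelia, was called on 1 of its 3 probe sets. The called probe set read 6.22, 6.43, 6.27, 6.10 and 6.34 (limma adjusted p = 1.45e-05 over all probe sets). The others read 6.0, 5.33, 5.31, 5.46 and 5.39 (adjusted p = 0.500) and 3.36, 4.37, 3.38, 3.77 and 4.36 (adjusted p = 1). The called one is of a type that can match several transcripts of a gene, and without such probe sets, or with the median over probe sets, Aldh1a3 was not called (limma adjusted p = 0.745 and 0.260). At the 99th percentile background it was not called either (difference −0.20, adjusted p = 1). The only probe sets of Crabp1 and Dhrs3 and the brighter one of Rdh10 are of that same type.

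The cytosolic binding proteins behaved differently from each other across the replicates. Crabp1 read 7.21, 7.54, 6.89, 6.75 and 9.20, so that replicate 5 exceeded every other replicate by at least 1.67 log2 units. Its mean was 7.52 ± 0.99 (SD, n = 5), 1.99 above background (SE 0.27, limma adjusted p = 2.88e-06), and its range was 5.47-fold. Crabp2 read 7.58, 7.53, 7.51, 7.46 and 7.52, within 0.13 log2 units, with a mean of 7.52 ± 0.045 (SD, n = 5) and a limma adjusted p of 2.35e-10. The SD of Crabp2 was the lowest of the 9 members and that of Crabp1 the highest.

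Spread between replicates was tested as a variance ratio, which sets a gene's variance over the 5 arrays against the one limma fits to genes of like signal, in a one-sided F test adjusted over all genes. No member passed (0 of 9), nor did any gene on the arrays (0% of 18194). With 5 arrays and adjustment over all genes, the test has little power. A secretory cell marker gene with a variance ratio of 83.3 had an adjusted p of 0.810 in this F test. A count of 0 therefore does not show that the replicates were alike. At an unadjusted p under 0.05, 2 of 9 members passed, against 5.58% of all genes, and these were Crabp1 (variance ratio 14.8, unadjusted p = 0.00982, adjusted p = 0.810) and Aldh1a2 (ratio 9.78, unadjusted p = 0.0213, adjusted p = 0.814). Both rested on replicate 5, and without it the ratios were 1.70 for Crabp1 and 2.46 for Aldh1a2. Aldh1a1 had a ratio of 5.36 (unadjusted p = 0.0613), Stra6 3.17 and Dhrs3 1.26, while Aldh1a3, Rbp4, Rdh10 and Crabp2 had ratios from 0.030 to 0.544. The median SD of the members was 0.13, against 0.17 for all genes.

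**Figure D2:**
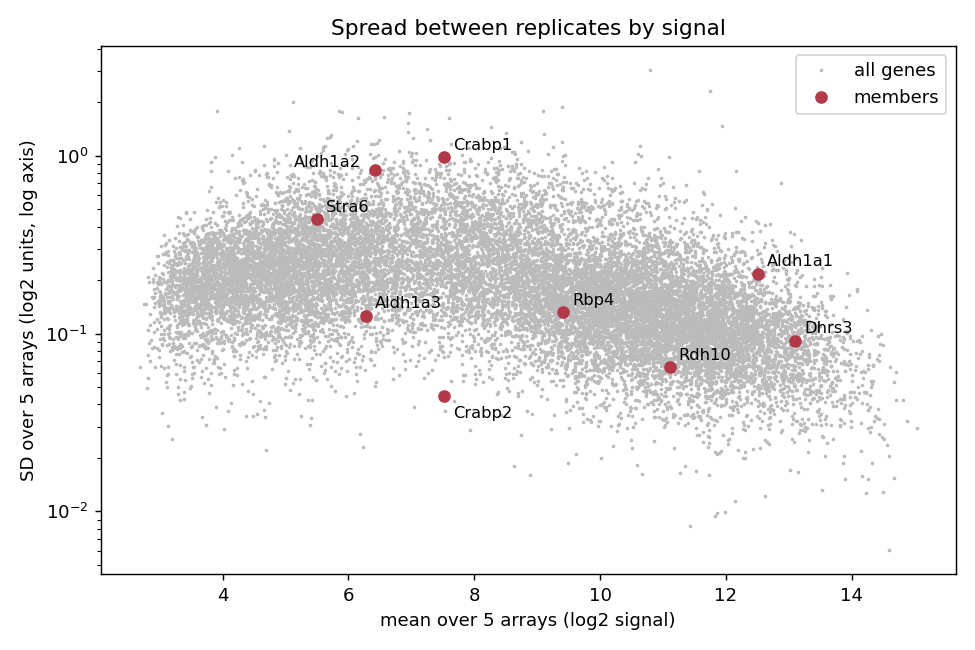
SD over the 5 arrays (vertical log axis, log2 units) against mean log2 signal (horizontal axis) for 18194 genes in grey and the 9 members in red. Crabp1 (SD 0.99) and Aldh1a2 (SD 0.83) lie above most genes of like signal, though others lie higher, and Crabp2 (SD 0.045) lies near the lower edge.

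Mesothelial markers were set beside Aldh1a2. Of 9 measured markers of this lining of the lung surface, 5 were above background, against 74.9% of all genes. The list's mean level ran from 7.47 to 8.31 over the arrays. Msln, which encodes mesothelin, read 11.46, 11.91, 11.88, 11.74 and 11.66. Upk3b, a surface protein gene of mesothelium that was also nearest but one to Aldh1a2 in the search for similar values, read 8.84, 8.69, 7.97, 9.46 and 7.02, and the mesothelial transcription factor gene Wt1 read 5.97, 5.68, 4.87, 6.26 and 4.84. Like Aldh1a2, 5 of the 9 markers were highest in replicate 4, and 3 of 9 were lowest in replicate 5. Of those 5, Upk3b was called above background and Wt1, Lrrn4, Muc16 and Bnc1 were not. The other called markers differed from Aldh1a2 in their highest array, which was replicate 2 for Msln, Krt19 and Gpm6a and replicate 1 for Upk1b. The score of the list was −0.02, 0.34, −0.18, 0.25 and −0.38. It was lowest in replicate 5, as Aldh1a2 was, but highest in replicate 2. The part of mesothelial RNA in the Aldh1a2 values was not tested.

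For the 3 members of widest range, the called genes with the most similar values were sought by the root mean square difference of mean-centred values over the 5 arrays, as a description. For Aldh1a2 these were Krtap28-13 (0.14 log2 units), Upk3b (0.16) and Zan (0.30). For Crabp1 they were Myl3 (0.25), Orm1 (0.27) and Phactr3 (0.33), and Myl3, a myosin light chain of heart and slow muscle, read 6.92, 7.31, 6.61, 6.81 and 8.48. Stra6 was nearest to A330076H08Rik (0.080), 4933424G05Rik (0.088) and Mocos (0.14). With 13563 genes searched over 5 arrays, close matches may arise among unrelated genes.

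Markers of some other cells were also higher in the replicate where Crabp1 was high, and those of others were lower. The fibroblast score was 0.01, 0.34, −0.56, −0.15 and 0.36 in replicates 1 to 5, and 10 of 15 fibroblast genes were highest in replicate 5, with the list's mean level between 9.88 and 10.90. Lum and Fgf10 of that list were not called. A list of 10 heart muscle genes, chosen once results were known, had scores of 0.36, 0.19, −0.98, −0.05 and 0.48, with 5 genes highest in replicate 5 and a mean level of 7.37 to 8.70. Its member Pln was not called. The immune score was 0.13, −0.06, −0.62, 0.26 and 0.29, with 8 of 12 genes highest in replicate 5 and a mean level of 10.57 or more in every array. The endothelial score was highest in replicate 5 as well (0.14), with 6 of 12 genes highest there and a mean level of 10.17 to 10.46. In contrast, the alveolar type 2 score was lowest in replicate 5 (−0.11, with 7 of 11 genes lowest there), as was the mesothelial score (−0.38). Ciliated and erythroid scores were −0.37 and −0.41 in that array. Scores of alveolar type 1, club and secretory, and neuroendocrine markers were 0.06, 0.19 and 0.13 there. The fibroblast, heart muscle and immune scores were lowest in replicate 3, whereas Crabp1 was lowest in replicate 4. Their part in the Crabp1 value was not tested.

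**Figure D3:**
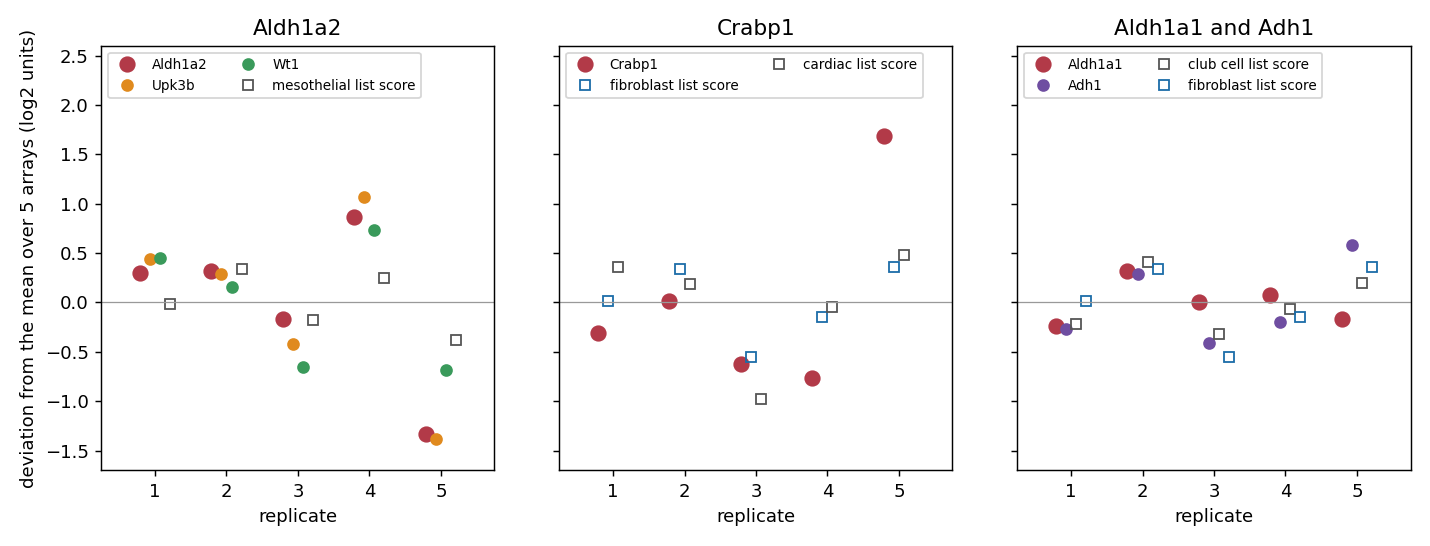
Deviation from the mean over the 5 arrays (vertical axis, log2 units) in each replicate (horizontal axis). Filled circles show the genes Aldh1a2, Crabp1, Aldh1a1, Adh1, Upk3b and Wt1, and open squares show cell type list scores. Aldh1a2 and Upk3b are both highest in replicate 4 and lowest in replicate 5. Of the called mesothelial markers not plotted, Msln, Krt19 and Gpm6a were highest in replicate 2 and Upk1b in replicate 1. Crabp1 is highest in replicate 5, where the fibroblast score is 0.36. That score is 0.34 in replicate 2, where Crabp1 read 7.54.

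Adh1, an alcohol dehydrogenase that can oxidise retinol, was among the other pathway genes with a wide spread. It read 12.25, 12.80, 12.11, 12.32 and 13.10, highest in replicate 5 and lowest in replicate 3. Its variance ratio was 20.1 (unadjusted p = 0.00538, adjusted p = 0.810). Rarres2, which encodes chemerin, read 11.94, 12.16, 11.55, 11.70 and 12.24 on its brightest probe set, highest in replicate 5 and lowest in replicate 3 (ratio 7.49, unadjusted p = 0.0345, adjusted p = 0.858). Of its other 2 probe sets, both called, one was highest in replicate 2 and the other in replicate 1. The fibroblast, immune and heart muscle scores were also highest in replicate 5 and lowest in replicate 3, and the part of RNA from these cells in the Adh1 and Rarres2 values was not tested. Ttr (unadjusted p = 0.00562) and the cytochrome gene Cyp2s1 (unadjusted p = 0.0144) were the others among the 58 pathway genes with an unadjusted p under 0.05, and 0 of 58 passed after adjustment. Cyp2s1, which can metabolise retinoic acid, read 11.67, 11.79, 11.22, 10.91 and 10.89.

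Of the 58 other measured pathway genes, 44 were above background (75.9%, against 74.9% of all genes). Breakdown enzymes gave 2 of 3, with Cyp26c1 not analysed here. Cyp26b1 read 8.22, 7.32, 7.92, 7.24 and 7.75 (limma adjusted p = 2.94e-09), while Cyp26a1 read 5.27, 4.89, 5.00, 4.59 and 4.53 and lay below background in all 5 arrays (adjusted p = 1).

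Nuclear receptors and cofactors gave 9 of 10 measured genes above background (74.9% of all genes), and with 10 genes the count is not read as particular to them. Rara had 7.63 ± 0.17, Rarb 7.86 ± 0.38, Rarg 9.90 ± 0.13, Rxra 10.80 ± 0.20 and Rxrb 11.59 ± 0.17 (SD, n = 5), and Rxrg, at 5.10 ± 0.21, was not called (limma adjusted p = 1). Rarb, itself a classical target of retinoic acid, read 7.49, 8.42, 7.75, 8.05 and 7.59, highest in replicate 2. The coactivator genes Ncoa1, Ncoa2 and Ncoa3 had 12.08 ± 0.047, 11.32 ± 0.14 and 12.03 ± 0.065.

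Among genes known to respond to retinoic acid, 13 of 15 measured genes were above background (86.7%, against 74.9% of all genes). With 15 genes, that count is not read as particular to them. Tgm2, a transglutaminase, had 12.79 ± 0.19, and the Hox genes Hoxa5 and Hoxb5 had 9.07 ± 0.30 and 9.08 ± 0.37 (SD, n = 5). On their brightest probe sets, Hoxa4, Hoxa5, Hoxb5 and Meis1 were highest in replicate 5, where they read 7.30, 9.43, 9.67 and 7.11. So were Meis2, Rarres1 and Rarres2. Further probe sets of Hoxa4 and Meis1, not called, were highest in replicate 2 or 3. The brightest Meis2 probe set read 8.99 in replicate 5 and 8.98 in replicate 1. Another Meis2 probe set, also called, was highest in replicate 1 (6.77), and its remaining ones in replicate 5. Other genes of the list were highest elsewhere: Tgm2, Gata6, Foxa1 and Foxa2 in replicate 3, Stra8 and Tgfb2 in 2, Bhlhe40 in 1 and Rai14 in 4. The fibroblast, immune, endothelial and heart muscle scores were highest in replicate 5 (0.36, 0.29, 0.14 and 0.48). Their part in the values of the Hox genes and Meis1 was not tested. Stra8, the germ cell gene named for its response to retinoic acid, read 5.26, 6.50, 5.35, 5.86 and 5.40 and was not called (limma adjusted p = 0.258), nor was Rarres1 (5.35 ± 0.30, adjusted p = 1). Many genes of this list have other regulators, so their signals do not measure retinoic acid.

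**Figure D4:**
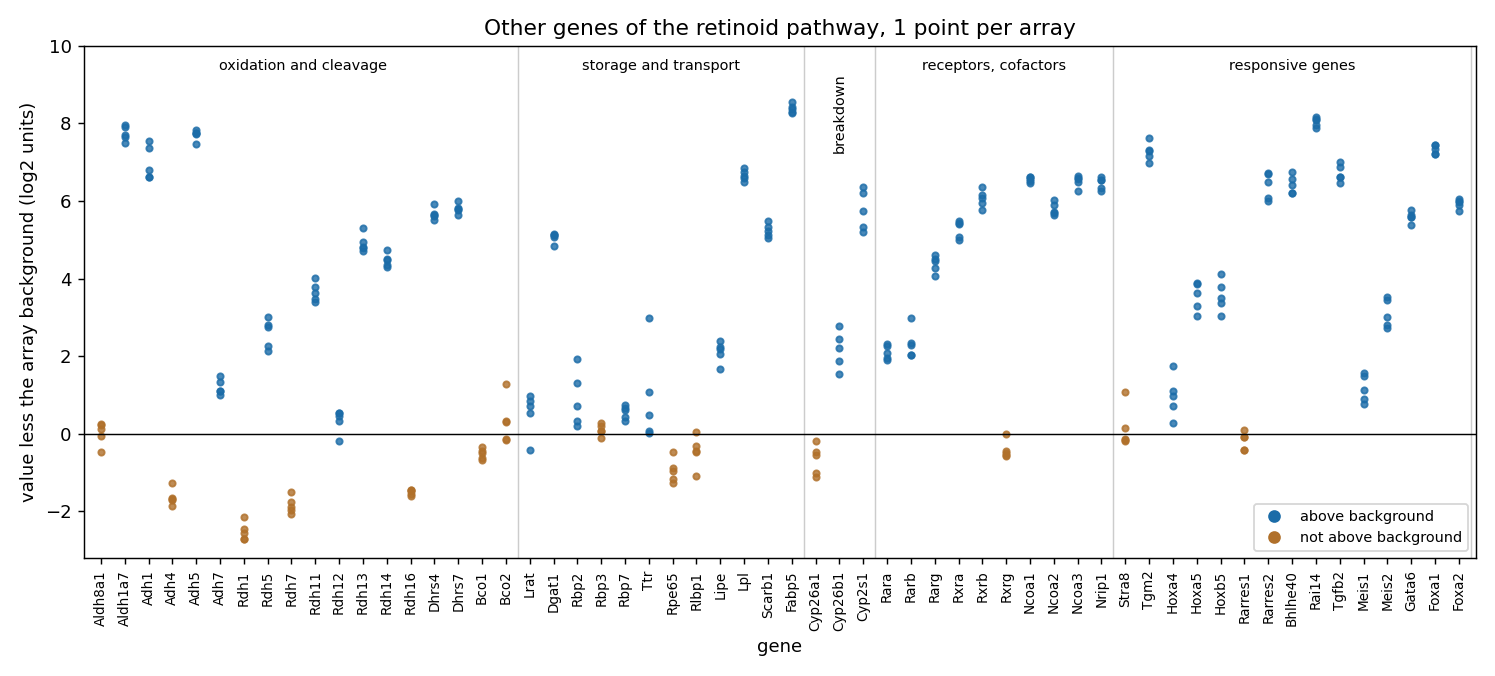
Log2 value less the background of its array (vertical axis) for 58 other retinoid pathway genes by role (horizontal axis), 1 point per array, with blue for genes called above background and brown for those not called. Cyp26a1 lies below 0 in all 5 arrays, and Cyp26b1 and Rarb lie above 0 in all 5.

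Promoter sequences were examined because Cyp26a1 and Rarb, which differed in their call, are known to carry retinoic acid response elements. Windows of 300 bases, 250 before and 50 after a transcript start, came from RefSeq on the mouse build GRCm38.p6. The motif was the direct repeat of the nuclear receptor hexamer (A or G, then G, then G or T, then TCA), searched on both strands as exact matches with 5 bases between the hexamers, and overlap with other motifs was not examined. It was present in 32 of 32851 windows (0.0974%). Because Rarb and Cyp26a1 were known beforehand to carry such elements, their matches are not read as enrichment. Among 64 windows of 47 other pathway genes the motif was in 2, one of Rarb and one of Cyp26a1. These are printed 5′ to 3′ along the gene with the hexamers in capitals, from chr14:16575427-16575726 (minus strand) and chr19:37697558-37697857 (plus strand).
Rarb: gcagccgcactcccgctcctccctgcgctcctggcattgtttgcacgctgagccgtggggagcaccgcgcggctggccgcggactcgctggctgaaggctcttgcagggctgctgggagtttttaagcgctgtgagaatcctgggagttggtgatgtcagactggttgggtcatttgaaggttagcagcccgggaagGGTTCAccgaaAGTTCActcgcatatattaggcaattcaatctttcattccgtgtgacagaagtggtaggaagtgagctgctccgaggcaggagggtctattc
Cyp26a1: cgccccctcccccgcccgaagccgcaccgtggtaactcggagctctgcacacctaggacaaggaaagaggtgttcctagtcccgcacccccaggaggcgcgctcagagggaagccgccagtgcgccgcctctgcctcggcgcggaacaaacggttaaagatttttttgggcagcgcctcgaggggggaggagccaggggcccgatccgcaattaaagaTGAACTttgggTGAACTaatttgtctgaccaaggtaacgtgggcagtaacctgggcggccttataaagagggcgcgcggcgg
The Rarb hexamers begin 53 bases before the start and read along the gene. In Cyp26a1 they begin 32 bases before the start and lie on the opposite strand. Both windows thus hold the motif within a short distance of the start, while on these arrays Rarb was called and Cyp26a1 was not. A match in the letters is no evidence of binding.

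Windows were found for 6 of the 9 members (13 windows): Aldh1a1, Aldh1a2, Crabp1, Dhrs3, Rbp4 and Stra6. The motif with 5 bases between hexamers was in 0 of the 13, and so were those with 1 base (0.222% of all windows) and 2 bases (0.268%), which says only that these letters are not in these windows. The windows differed in CG dinucleotides, whose median over all windows was 7. Aldh1a2 had 50, more than 99.1% of all windows, and Crabp1 had 17, whereas the 2 Aldh1a1 windows had 3 and 1. The windows of the 2 members that varied most and of Aldh1a1 are printed with CG in capitals, from chr9:54764498-54764797, chr9:71215539-71215838 and chr19:20601718-20602017, all on the plus strand.
Crabp1: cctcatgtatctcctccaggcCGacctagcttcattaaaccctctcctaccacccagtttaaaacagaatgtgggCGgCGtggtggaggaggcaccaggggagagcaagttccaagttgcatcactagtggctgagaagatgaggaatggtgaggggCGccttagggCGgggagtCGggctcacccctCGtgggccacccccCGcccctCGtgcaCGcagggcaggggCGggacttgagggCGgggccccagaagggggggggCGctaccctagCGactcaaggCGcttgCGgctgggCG
Aldh1a2: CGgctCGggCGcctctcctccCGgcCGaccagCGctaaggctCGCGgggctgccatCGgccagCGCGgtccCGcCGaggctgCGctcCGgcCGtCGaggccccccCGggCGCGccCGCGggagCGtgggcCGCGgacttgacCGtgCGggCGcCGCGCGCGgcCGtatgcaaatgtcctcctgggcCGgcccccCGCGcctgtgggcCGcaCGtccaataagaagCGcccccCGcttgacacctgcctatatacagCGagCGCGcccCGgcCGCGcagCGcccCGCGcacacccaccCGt
Aldh1a1: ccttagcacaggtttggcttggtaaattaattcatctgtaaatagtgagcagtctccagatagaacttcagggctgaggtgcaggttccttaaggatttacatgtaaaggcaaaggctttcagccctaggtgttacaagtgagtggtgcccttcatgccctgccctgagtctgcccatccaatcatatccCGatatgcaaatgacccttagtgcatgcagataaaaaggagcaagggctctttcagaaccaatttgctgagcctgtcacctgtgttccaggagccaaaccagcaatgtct
The Aldh1a2 sequence is dense in CG along most of its length and that of Aldh1a1 has a single CG. The windows of Rbp4 had 40 and 5, those of Dhrs3 from 9 to 21 and those of Stra6 from 5 to 10.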

How the data were processed

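Per the labels' protocols, RNA from 5 sorted samples was amplified with NuGEN Ovation kits, labelled with biotin and measured on Affymetrix arrays of 1 colour. The deposited values are the authors' log2 signals, 1 per probe set and array, with the log base inferred from their range. For the software, background correction and normalization, the sources used here give nothing; scanner files were not used here. Of 45101 probe sets, 34958 had 1 gene symbol, 932 several and 9211 none here. A gene's value was that of its brightest probe set on average, a rule that favours signal.

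After subtraction of the array background, an intercept was fitted with limma (version 3.58.1 in R 4.3.3, trend in eBayes), and spread was tested with squeezeVar (trend, robust, prior degrees of freedom 4.22). Both were tested on simulated data, where SDs followed a smooth trend on signal except in genes given a raised SD. Other variation in SD between genes of like signal was not simulated, so the power of the spread test on these arrays is not known from it. Arrays give no counts, so their number limits the precision. The members and lists were chosen with earlier results of these data known. Genes were named by rule: the members, the pathway lists, the 3 nearest genes of the 3 most variable members and, where named at all, the first 2 markers of each list; Lrrn4, Muc16, Bnc1, Upk3b, Krt19, Gpm6a, Upk1b, Lum, Fgf10, Pln, Mbp and Alb were named after their values were seen.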

Additional observations from a re-analysis of the deposited data

Results flagged for a closer look

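Among 80 sets of 5 values (member probe sets, pathway genes and cell type scores), 5 had 1 array whose gap to the nearest other array, divided by the whole range, exceeded the 95% critical value of 0.71. Chance flags about 1 in 20 such sets. An Aldh1a3 probe set that was not called read 6.0 in replicate 1 against 5.31 to 5.46 elsewhere (ratio 0.792). Rdh12 read 5.36 in replicate 5 against 5.93 to 6.03 (0.849), and Dgat1 read 10.69 in replicate 5 against 10.54 to 10.58 (0.751). Ncoa1 read 12.16 in replicate 4 against 12.04 to 12.07 (0.740), and Nrip1, a corepressor gene, 11.70 in replicate 2 against 12.01 to 12.10 (0.791).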

How the results depend on the processing

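The number of arrays and the choice of background limit these results. With organ-restricted genes as background, 4 of 9 members, 5 of 12 member probe sets and 8960 of 18142 genes were called. Differences from that background were −2.24 for Aldh1a2, −2.40 for Aldh1a3, −1.15 for Crabp1 and −1.15 for Crabp2 by gene, and by probe set −1.49 for Aldh1a2, −1.64 and −2.42 for Aldh1a3, −2.41 for Stra6, −0.40 for Crabp1 and −0.40 for Crabp2. The higher background is the cause by construction. Without probe sets ending in _x_at, _s_at or _a_at, 5 of 7 members and 5 of 8 probe sets were called, since fewer were tested, and Aldh1a3 lay at −0.023. Crabp1 and Dhrs3 could not be tested there, because their only probe sets have such an ending. At the 99th percentile, Aldh1a2 and Aldh1a3 lay at −0.049 and −0.20 by gene, and by probe set Aldh1a3 at −0.12 and −0.89 and Stra6 at −0.89; at the 90th, Stra6 lay at 0.41. The median over probe sets gave 0.12 for Stra6. Leaving out each array in turn gave 8 members, with Stra6 between −0.11 and 0.13 by gene and −0.042 and 0.19 by probe set, and an Aldh1a3 probe set between −0.10 and 0.098. Quantile normalization, median centring, a filter on dim probes and no variance trend each gave 8 members and 44 pathway genes. Pathway genes called were 49 at the 90th percentile, 36 at the 99th (Lrat, Ttr, Rbp2, Hoxa4 and Meis1 among those lost), 30 of 58 against organ-restricted genes (Rarb and Cyp26b1 at −0.81 and −0.98), 35 of 51 without those suffixes, 43 by the median over probe sets and 43 to 44 without 1 array. Under the alternatives run, 0 members and 0 pathway genes passed the spread test. As no gene on the arrays passed it in the main run, these counts carry little information. No paired analysis was possible because the labels give 1 group.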
